A study of Brassica rapa subsp. pekinensis with 2 samples.

Results

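BraA09g034610.3C and BraA09g003580.3C are a pair of Chinese cabbage genes described in the deposited annotation as cell wall protein DAN4 and cell wall protein DAN4-like. Every linear transcript that carried either gene name was taken, which gave 5 of the 50834 linear transcripts in the table: 2 of the 34213 reference transcripts, 1 for each gene, and 3 of the 373 assembled transcripts on the opposite strand of a reference gene (class code x). No assembled isoform on the same strand was listed for either gene. The pair was chosen by its measured level in the anther library and its near absence from the other library, so the values of its transcripts in the 2 libraries are a description and no test was made on them.

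To compare the RNA of anthers with that of vegetative organs in Chinese cabbage (Brassica rapa subsp. pekinensis), an anther library ('Ant') and a library of vegetative organs ('Mix', with root, stem and leaf) had been sequenced, 1 each, after depletion of ribosomal RNA. Both came from the double haploid (DH) line 'FT', a fully homozygous line raised from a microspore. 'Ant' pooled anthers of different stages taken from the buds of flowering plants, and 'Mix' was made from whole seedlings with 4 true leaves. The labels give vernalization at 4 °C for 20 days for both samples, whereas the methods of the study state it for 'Ant' alone, so organ, plant age and possibly cold treatment cannot be told apart.

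DAN4 is named after a mannoprotein of the cell wall of baker's yeast (Saccharomyces cerevisiae), which belongs to a family of serine- and threonine-rich wall proteins made under low oxygen. A plant gene receives such a name by sequence similarity in automatic annotation, and the name does not establish the function. Plant cell walls hold structural glycoproteins of their own, among them the hydroxyproline-rich extensins and the arabinogalactan proteins. The pollen grain that matures inside the anther has a wall with an outer layer, the sporopollenin exine, and an inner layer, the intine, which is built of cellulose, pectin and proteins.

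Both genes lie on the minus strand of chromosome A09 of the Brassica rapa v3.0 genome. BraA09g034610.3C spans A09:27216771-27218486 with 3 exons, a coding length of 1416 nt and 300 nt of introns. BraA09g003580.3C spans A09:2202250-2204112 with 3 exons, a coding length of 1638 nt and 225 nt of introns. The lengths are called coding lengths because every reference length in the table was a multiple of 3, that is, the gene models hold no untranslated regions. The genes are 25012659 nt apart on the chromosome, and no transcript of another gene overlapped either of them. Besides the unspecific root terms, the Gene Ontology column gave nucleus for BraA09g034610.3C and plasma membrane for BraA09g003580.3C, and a cell wall term for neither.

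BraA09g034610.3C had an FPKM (fragments scaled to transcript length and library total) of 8458 in 'Ant', against 0.0245 in 'Mix'. The deposited estimated counts behind these values were 2778201 in 'Ant' and 9 in 'Mix'. The transcript was thus among the most abundant in anthers and close to the limit of detection in the vegetative organs. Per library total, its estimated counts were 306925-fold higher in 'Ant'. No counting interval is given, since an estimated count was derived from coverage and is not 1 read. The ratio of the FPKM values was larger, at 345283, because the 'Mix' FPKM corresponded to 8.0 counts. On the log2(FPKM + 1) scale, which understates the change of low transcripts, the log2 ratio of 'Ant' to 'Mix' was 13.01.

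BraA09g003580.3C had an FPKM of 7612 in 'Ant' and was listed at 0 in 'Mix'. Its estimated counts were 2892169 in 'Ant' and 0 in 'Mix'. Against a floor of 6 estimated counts in 'Mix', which for this length is an FPKM of 0.0159, it was at least 479274-fold higher in 'Ant', and its log2 ratio was 12.89. The gene may be expressed in vegetative organs below that floor, which for BraA09g034610.3C lay at an FPKM of 0.0184. In these bulk libraries, fewer cells that express a gene and less RNA of it per cell cannot be told apart. Each group held 1 library, so no difference had a replicate behind it, and the floors cover counting error only.

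**Figure D1:**
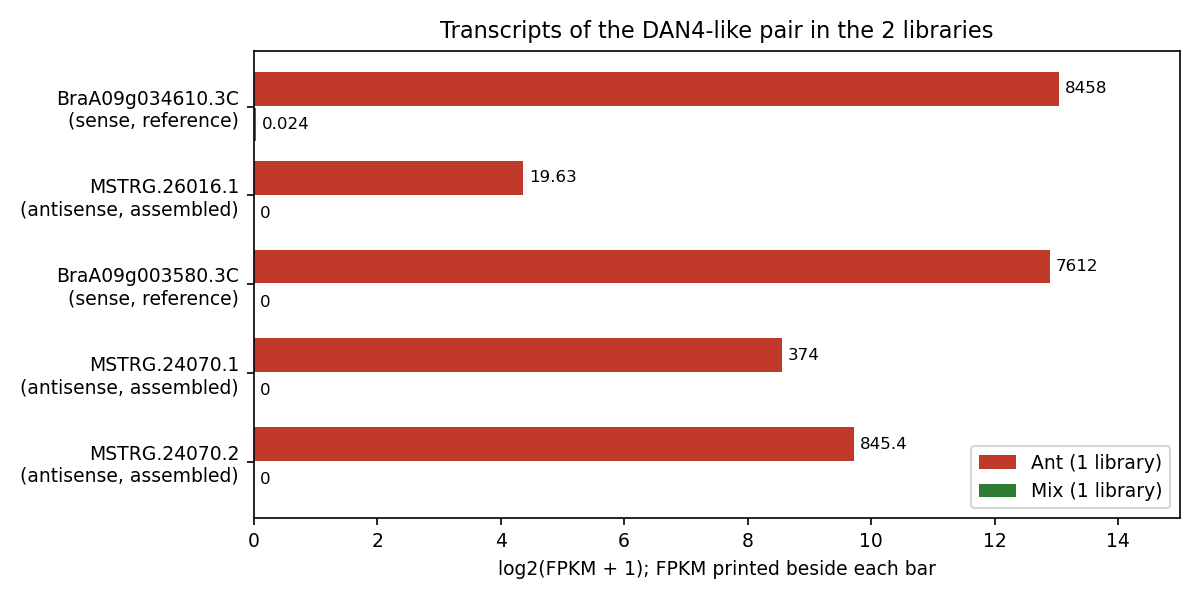
FPKM of the 5 transcripts of the DAN4-like pair in the 'Ant' library (red, upper bar of each pair) and the 'Mix' library (green, lower bar), drawn as log2(FPKM + 1) with the FPKM beside each bar. The reference transcripts stand at 8458 and 7612 FPKM in 'Ant', and 4 of the 5 transcripts are listed at 0 in 'Mix'.

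Both reference transcripts of the pair passed the cutoff of 2 on the log2 ratio, which the study used for mRNAs. Over all reference transcripts with an FPKM of at least 1 in either library, 21.2% (4229 of 19909) lay above 2 and 9.48% (1888) lay below -2, with a median log2 ratio of 0.62. Of the transcripts past either cutoff, 69.1% were the higher ones in 'Ant', against 50.9% after centring on the median and 48.6% with library totals that leave out a window on chromosome A06 that held most counts of 'Mix'. Nothing is read from the place of the pair against this share, since the pair was selected on this contrast. The median of transcripts at an FPKM of at least 1 in both libraries was 0.54, and relative to it the log2 ratios of the pair were 12.47 for BraA09g034610.3C and 12.36 for BraA09g003580.3C.

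Within 'Ant', BraA09g034610.3C ranked 2 and BraA09g003580.3C ranked 3 in FPKM among the reference transcripts, and the ranks were the same among all transcripts. Only BraA01g015410.3C, an uncharacterized protein with an FPKM of 21447 in 'Ant' and 0 in 'Mix', was higher, at 2.54 times the level of BraA09g034610.3C. BraA09g003580.3C lay 1.24 times above the next reference transcript. The order within the pair depended on the unit. In FPKM, BraA09g034610.3C was 1.11 times BraA09g003580.3C, whereas in estimated counts, which are not divided by length, it was 0.961 times BraA09g003580.3C, whose transcript is longer. By estimated counts, BraA09g003580.3C ranked 1 and BraA09g034610.3C ranked 2 among the reference transcripts in 'Ant'. Among all transcripts, their ranks by estimated counts were 2 and 3. With 1 library, no spread is at hand against which these small differences within the pair could be set.

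The pair took a visible part of the anther library. BraA09g034610.3C made up 1.28% of the estimated counts of 'Ant', and BraA09g003580.3C made up 1.34%. Together they held 5670370 estimated counts, or 2.62% of 'Ant', against 4.72e-06% of 'Mix'. Of the summed FPKM of all reference transcripts in 'Ant', the pair accounted for 2.92%. Reads that fit near-identical gene copies could have been divided between them, and the sequence identity of the pair was not analysed here, so the level of each gene is less certain than their sum.

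High anther level with little or no signal in vegetative organs was common among the most abundant anther transcripts. Of the 74 reference transcripts with an FPKM of at least 1000 in 'Ant', 54 were listed at 0 in 'Mix', 55 had at most 6 estimated counts there, and 10 had an FPKM of at least 1. BraA09g003580.3C was 1 of the 54, and BraA09g034610.3C, with 9 estimated counts, was 1 of the 58 with fewer than 10. Over the whole table, 5284 reference transcripts were listed at 0 in 'Mix'.

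**Figure D2:**
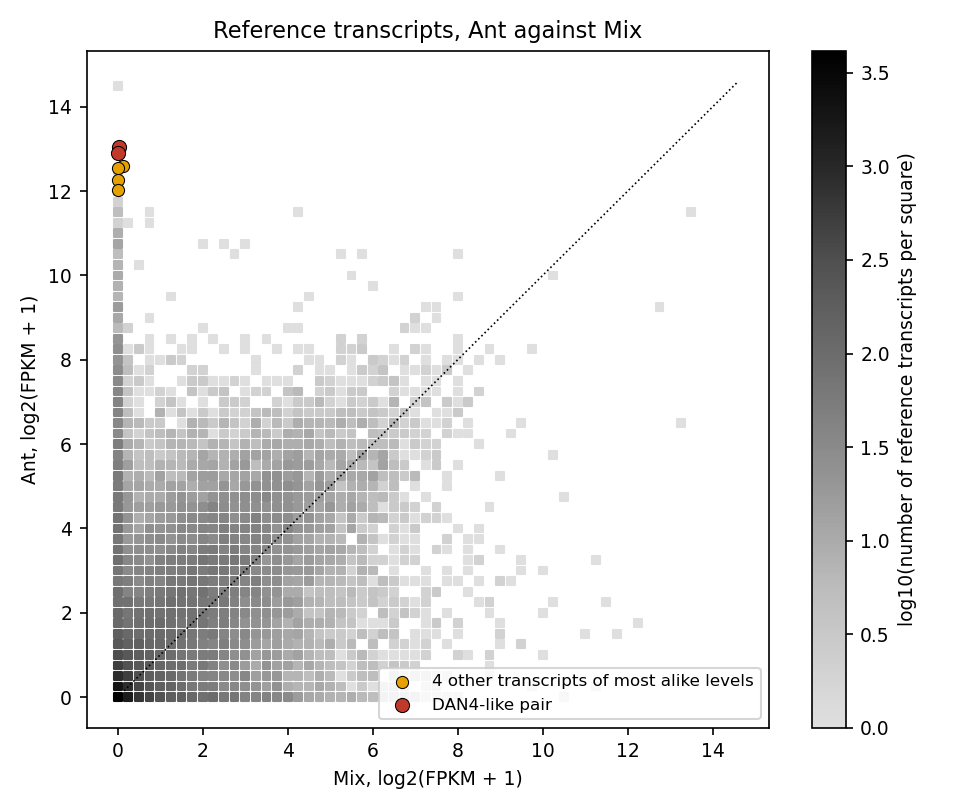
log2(FPKM + 1) of reference transcripts in 'Ant' (vertical axis) against 'Mix' (horizontal axis), with the number of transcripts per square in grey on a log10 scale and the diagonal dotted. The pair (red) stands at the top of the left edge with the 4 other transcripts nearest to it (orange), below only 1 reference transcript.

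By distance in log2(FPKM + 1) over the 2 libraries, each gene of the pair was the nearest of all reference transcripts to the other, at 0.156. The same 4 further transcripts followed for both. BraA06g036460.3C, an uncharacterized protein, had an FPKM of 6151 in 'Ant' and 0.0886 in 'Mix', at distances of 0.468 from BraA09g034610.3C and 0.331 from BraA09g003580.3C. BraA09g005520.3C, also uncharacterized and encoded by a single exon of 237 nt on the same chromosome, had an FPKM of 6011 in 'Ant' and 0 in 'Mix'. Neither description gives these genes a role. The study tested the promoters of both in Arabidopsis, saw reporter signal only in the anther, and proposes that they may act in anther development. BraA08g035590.3C, an exopolygalacturonase, an enzyme class that trims pectin and is abundant in pollen, had an FPKM of 4885 in 'Ant' and 0 in 'Mix'. BraA01g022320.3C, uncharacterized, had an FPKM of 4172 in 'Ant' and 0 in 'Mix'. A likeness over 2 libraries is set almost wholly by the level in 'Ant', since all 6 transcripts were near 0 in 'Mix'.

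The tissue labels were checked on marker genes taken by their descriptions. All 4 polcalcin transcripts, which encode calcium-binding pollen allergens, and all 7 transcripts described as anther-specific lay above a log2 ratio of 2, with summed FPKM of 705 in 'Ant' and 0.132 in 'Mix' for the polcalcins, and of 939 in 'Ant' and 0.196 in 'Mix' for the anther-specific transcripts. Calls were counted among transcripts with an FPKM of at least 1 in either library, whereas the summed FPKM took all. Of 28 pollen-specific transcripts, 25 passed this filter, with 14 above 2 and 1 below -2 (2826 in 'Ant', 95.4 in 'Mix'). Of 2 tapetum transcripts, 1 passed and lay above 2 (10.4 in 'Ant', 0.438 in 'Mix'). No description named a pollen coat protein. Pollen and anther markers were thus mostly high in 'Ant'. The pair was chosen for a high level in 'Ant', so nothing about the pair is read from these markers. Of 24 chlorophyll a-b binding protein transcripts, 23 passed the filter and 22 lay below -2 (21.3 in 'Ant', 10374 in 'Mix'). Of 5 small chains of ribulose bisphosphate carboxylase, 4 passed and all 4 lay below -2 (5.32 in 'Ant', 8746 in 'Mix'). Of 10 casparian strip membrane proteins of the root, 7 passed and 2 lay below -2. All 10 were listed at 0 in 'Ant' and summed to 23.5 in 'Mix'. Leaf and root markers stood on the side of 'Mix'. A window of 500 kb on chromosome A06 (A06:15000001-15500000) held 2.07% of the estimated counts of 'Ant' and 56.2% of those of 'Mix'. With library totals that leave this window out, BraA09g034610.3C was 167519-fold higher in 'Ant' and BraA09g003580.3C at least 261586-fold higher.

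The 3 assembled transcripts of the pair were all listed on the plus strand, opposite to the genes, and with gaps between their exons. MSTRG.26016.1 lay inside BraA09g034610.3C at A09:27216911-27217284, from 1202 to 1575 nt behind the 5′ end of the gene, and covered 21.8% of the gene span in its 3′ portion. It had 2 exons, a length of 316 nt and a gap of 58 nt between the exons. MSTRG.24070.1 and MSTRG.24070.2 lay inside BraA09g003580.3C at A09:2202877-2203515, from 597 to 1235 nt behind the 5′ end, and covered 34.3% of the gene span in its middle. Both had 3 exons and the same ends, with lengths of 576 nt for MSTRG.24070.1 and 567 nt for MSTRG.24070.2. These transcripts thus differed by 9 nt of exon, and how the reads of this locus were shared out between them is uncertain. Their gaps between exons summed to 63 nt in MSTRG.24070.1 and 72 nt in MSTRG.24070.2. Whether the gaps of the 3 assembled transcripts are introns, and whether the strand call rests on them, was not tested. The library kit named in the labels keeps the strand, whereas the methods of the study name another, mRNA-Seq kit, so it is uncertain whether the library itself was stranded, and the strand setting of the counting was not given in the sources used here. Without strand, reads of a gene and of its antisense partner cannot be told apart, and the part of this in the antisense values was not tested.

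**Figure D3:**
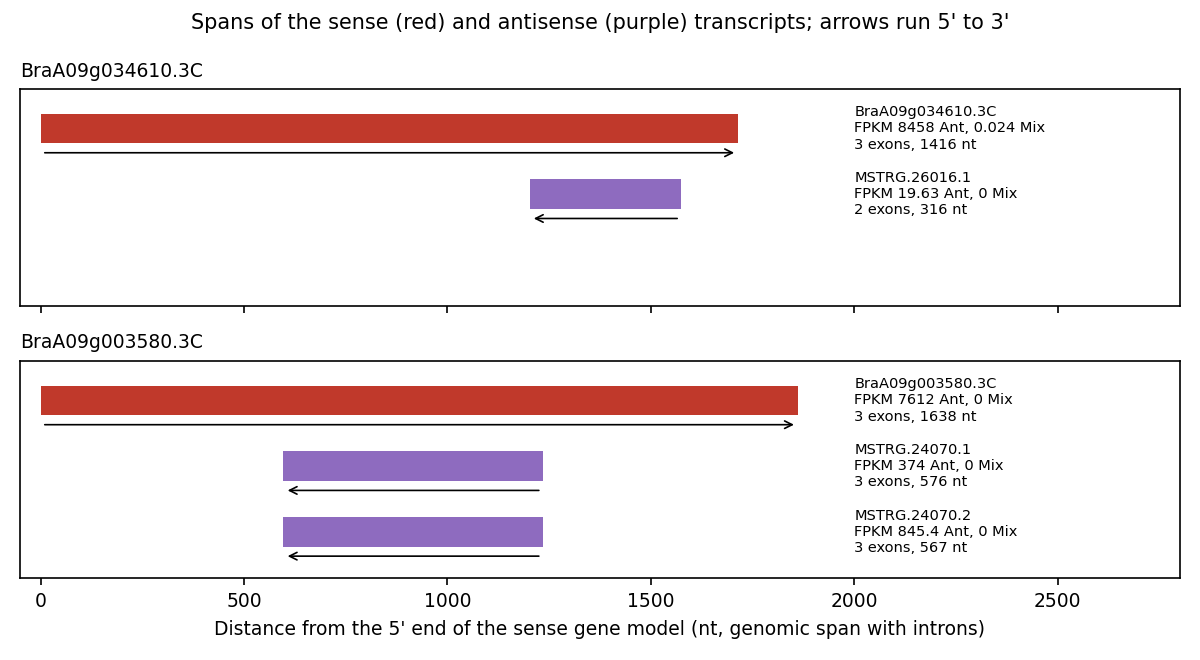
Genomic spans of the sense gene models (red) and of the antisense transcripts (purple), against distance in nt from the 5′ end of the gene. Arrows run 5′ to 3′, gaps between exons are included, and the FPKM in 'Ant' and 'Mix' stands at the right. Each antisense transcript lies wholly within its gene, toward the 3′ end in BraA09g034610.3C and in the middle of BraA09g003580.3C.

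All 3 antisense transcripts were measured in 'Ant' and listed at 0 in 'Mix', as was the sense transcript of BraA09g003580.3C. MSTRG.26016.1 had an FPKM of 19.6 and 1440 estimated counts in 'Ant', and was at least 239-fold higher there, with a log2 ratio of 4.37. MSTRG.24070.1 had an FPKM of 374 and 49968 estimated counts in 'Ant', at least 8280-fold higher than in 'Mix', with a log2 ratio of 8.55. MSTRG.24070.2 had an FPKM of 845 and 111195 estimated counts in 'Ant', at least 18427-fold higher than in 'Mix', with a log2 ratio of 9.73. The antisense RNA over BraA09g003580.3C was thus much the more abundant, and MSTRG.24070.2 was 2.26 times MSTRG.24070.1. Without the A06 window these bounds were 130-fold for MSTRG.26016.1, 4519-fold for MSTRG.24070.1 and 10057-fold for MSTRG.24070.2. All 3 passed a cutoff of 1 on the log2 ratio, which the study applied to lncRNAs; whether these transcripts are lncRNAs was not tested. The same cutoff was passed by 72.9% (261 of 358) of the class x transcripts with an FPKM of at least 1 in either library, whose median log2 ratio was 1.69. In FPKM in 'Ant', MSTRG.24070.2 ranked 4, MSTRG.24070.1 ranked 8 and MSTRG.26016.1 ranked 62 of the 373 class x transcripts.

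Relative to the sense transcript, the genes of the pair differed. In 'Ant', the antisense FPKM was 0.00232 of the sense FPKM at BraA09g034610.3C. At BraA09g003580.3C, the summed antisense FPKM of 1219 was 0.160 of the sense FPKM. The shares were 69.0-fold apart, although the sense levels of the genes differed by only 1.11 times. In estimated counts the antisense RNA was 0.0518% of the sense RNA at BraA09g034610.3C and 5.57% at BraA09g003580.3C. Over the 162 genes with a class x transcript above 0 and a sense FPKM of at least 1 in 'Ant', the median antisense to sense ratio was 0.60, with quartiles of 0.185 and 1.62. Of these genes, 2 had a lower ratio than BraA09g034610.3C and 35 had a lower ratio than BraA09g003580.3C, so both lay below the lower quartile. The ratio is divided by the sense level, and the pair was chosen for a high one. A low place among genes with a sense FPKM from 1 upward was thus favoured by the choice, and nothing is read from it.

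Transcripts near each gene on the chromosome were then compared. Within 50 kb of BraA09g034610.3C lay 8 reference transcripts, of which 5 had an FPKM of at least 1 in either library. None of the 5 lay above 2 or below -2, and their median log2 ratio was 0.61. The nearest on the 3′ side, BraA09g034600.3C (a BTB/POZ domain protein, 6589 nt away), had an FPKM of 1.32 in 'Ant' and 1.66 in 'Mix'. The nearest on the 5′ side, BraA09g034630.3C (a ribosomal protein of the large subunit, 8832 nt away), was listed at 0 in 'Ant' and at 0.991 in 'Mix'.

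The surroundings of BraA09g003580.3C were described in the same way. Of 14 reference transcripts within 50 kb, 10 had an FPKM of at least 1 in either library, of which 2 lay above 2 and 2 below -2, with a median log2 ratio of 0.20. The 2 of 10 above the cutoff are close to the 21.2% of all reference transcripts above it. The 2 of 10 below -2 stand over the 9.48% of all reference transcripts below it. With 5 and 10 neighbours measured, the counts do not set the surroundings of the genes apart. The 2 above were the nearest on the 3′ side, on the same strand as the gene. BraA09g003570.3C, an uncharacterized protein 1169 nt away, had an FPKM of 377 in 'Ant' and 0.0403 in 'Mix', with a log2 ratio of 8.50. BraA09g003560.3C, described as a cytochrome P450 and 4378 nt away, had an FPKM of 45.9 in 'Ant' and 2.39 in 'Mix', with a log2 ratio of 3.79. The 2 below were BraA09g003480.3C, an AAA-ATPase with a log2 ratio of -2.15, and BraA09g003510.3C, a subtilisin-like protease with a log2 ratio of -2.18. On the 5′ side the nearest transcript, BraA09g003590.3C (uncharacterized, 6673 nt away), had an FPKM of 4.17 in 'Ant' and 2.96 in 'Mix'.

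**Figure D4:**
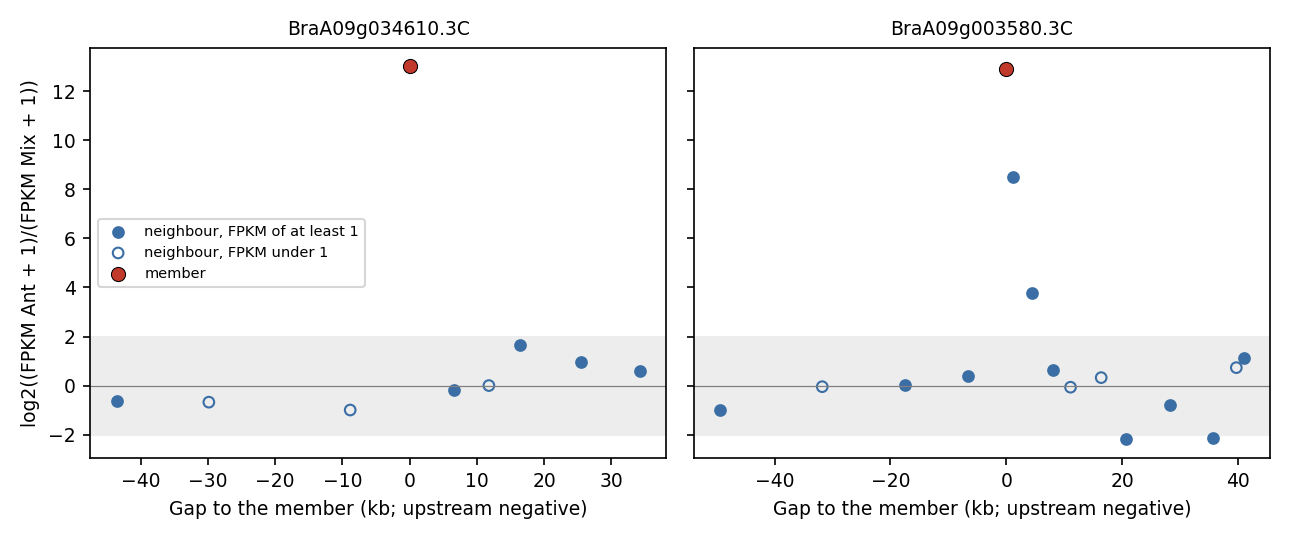
log2 ratio of 'Ant' to 'Mix' (FPKM + 1) of reference transcripts within 50 kb of BraA09g034610.3C (left) and BraA09g003580.3C (right), against the gap in kb, with the 5′ side of the gene negative; filled points have an FPKM of at least 1 in either library, and the grey band runs from -2 to 2. No filled neighbour of BraA09g034610.3C leaves the band, and 2 of the 10 filled neighbours of BraA09g003580.3C lie above it and 2 below. Of all reference transcripts, 21.2% lie above 2 and 9.48% below -2.

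To place the pair among cell wall proteins, 13 reference transcripts whose description names a cell wall protein or DAN4 were compared. Of these, 9 had an FPKM of at least 1 in either library, and 5 of the 9, the pair included, lay above 2 while none lay below -2, with a median log2 ratio of 3.15. Without the pair, 3 of 7 lay above 2 and the median was 1.02. Over all reference transcripts passing the same filter, 21.2% lay above 2 and 9.48% below -2, with a median of 0.62. No other description named DAN4. The pair held 98.9% of the summed FPKM of the list in 'Ant', and the 11 others summed to an FPKM of 185 in 'Ant' and 31.8 in 'Mix'. Members that entered the counts only through a high level in 'Ant' had to differ, so the counts describe the list and nothing is drawn from them about the pair.

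The next member, BraA09g055990.3C, a putative cell wall protein, had an FPKM of 140 in 'Ant' and 0 in 'Mix', so BraA09g034610.3C was 60.2 times and BraA09g003580.3C 54.2 times its level in 'Ant'. Of the 6 members named after gp1, a hydroxyproline-rich wall protein of the green alga Chlamydomonas, BraA01g041900.3C had an FPKM of 20.2 in 'Ant' and 0 in 'Mix', with a log2 ratio of 4.41. BraA07g018810.3C had 8.25 in 'Ant' and 0.0447 in 'Mix', with a log2 ratio of 3.15. These were the only gp1-like members above 2. The FPKM of BraA03g053740.3C was 11.6 in 'Ant' and 27.7 in 'Mix', that of BraA10g010300.3C was 1.12 in 'Ant' and 2.64 in 'Mix', and that of BraA03g045170.3C was 1.03 in 'Ant' and 0 in 'Mix'. BraA01g027310.3C, named after the yeast wall protein AWA1, had an FPKM of 1.11 in 'Ant' and 0.915 in 'Mix'. The remaining 4 members, BraA01g018940.3C, BraA03g054240.3C, BraA06g043590.3C and BraA02g008440.3C, stayed under an FPKM of 1 in both libraries.

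The other lists were taken by words in the descriptions, so a list is not a family of proven wall proteins. All but the list of mucin-like proteins had transcripts on both sides of the cutoff. The counts are read against 21.2% of all reference transcripts above 2 and 9.48% below -2. Of 71 arabinogalactan protein transcripts, 53 had an FPKM of at least 1 in either library, with 16 above 2, 14 below -2 and a median log2 ratio of -0.94. The 30.2% above 2 stand over the background share, and so do the 14 of 53 below -2. The balance depended on the scaling, with 15 above 2 and 21 below -2 after centring, and 14 above 2 and 22 below -2 without the A06 window. The background moved as well. Of all reference transcripts, 15.2% lay above 2 and 14.7% below -2 after centring, and 16.3% above and 17.2% below without the window. The highest in 'Ant' were 3 copies of FLA14, a fasciclin-like arabinogalactan protein known from Arabidopsis pollen. BraA05g034430.3C had an FPKM of 3876, BraA03g035430.3C of 1692 and BraA01g038740.3C of 1286 in 'Ant', and all 3 were listed at 0 in 'Mix', like BraA09g003580.3C. The whole arabinogalactan list summed to an FPKM of 9608 in 'Ant' and 736 in 'Mix', which in 'Ant' is less than the 16070 of the pair alone.

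Of 46 extensin transcripts, 30 entered the counts, with 7 above 2, 7 below -2 and a median of -0.62, and 11 of the 46 were also described as pollen-specific. The 23.3% above 2 are near the background share, whereas the 7 of 30 below -2 stand over the background of 9.48%. The even split held only as deposited, with 6 above 2 and 11 below -2 after centring, and 6 above 2 and 12 below -2 without the A06 window. The background was then 15.2% above 2 and 14.7% below -2 after centring, and 16.3% above and 17.2% below without the window. The highest in 'Ant' was BraA08g016310.3C, a pollen-specific leucine-rich repeat extensin, with an FPKM of 146 in 'Ant' and 0.103 in 'Mix'. BraA03g020670.3C, an extensin, had 134 in 'Ant' and 26.7 in 'Mix', and BraA08g005890.3C, an extensin, had 71.2 in 'Ant' and 0.0208 in 'Mix'. Each lay far below either gene of the pair in 'Ant'.

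Of 65 proline-rich transcripts, 44 entered the counts, with 11 above 2 (25%, near the background share), 9 below -2 and a median of -0.19. The 9 of 44 below -2 stand over the background of 9.48%. BraA06g015680.3C, the anther-specific protein APG, had an FPKM of 518 in 'Ant' and 0 in 'Mix', whereas BraA03g057140.3C had 271 in 'Ant' and 370 in 'Mix', and BraA08g022830.3C had 142 in 'Ant' and 334 in 'Mix'. APG, first known as a gene expressed in anthers, was thus the only one of these 3 that shared the absence from 'Mix' seen for BraA09g003580.3C. Of 54 glycine-rich transcripts, 24 entered the counts, with 3 above 2 (12.5%), 4 below -2 and a median of 0.24. BraA08g013400.3C had an FPKM of 569 in 'Ant' and 179 in 'Mix', BraA08g021740.3C had 70.9 in 'Ant' and 0.670 in 'Mix', and BraA09g021200.3C had 65.3 in 'Ant' and 4.31 in 'Mix'. All 3 were measured in both libraries, unlike BraA09g003580.3C. The mucin-like list took descriptions with mucin, flocculation, threonine-rich or serine-rich. Mucins and yeast flocculation proteins are repeat-rich surface proteins like yeast DAN4. Of the 9 transcripts of this list, 5 entered the counts, with 1 above 2 (20.0%), none below -2 and a median of 0.94. BraA09g042810.3C had an FPKM of 18.3 in 'Ant' and 1.39 in 'Mix', BraA03g034210.3C had 8.95 in 'Ant' and 4.18 in 'Mix', and BraA05g037300.3C had 6.0 in 'Ant' and 6.88 in 'Mix'. No transcript of these lists reached the level of BraA09g003580.3C in 'Ant'.

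**Figure D5:**
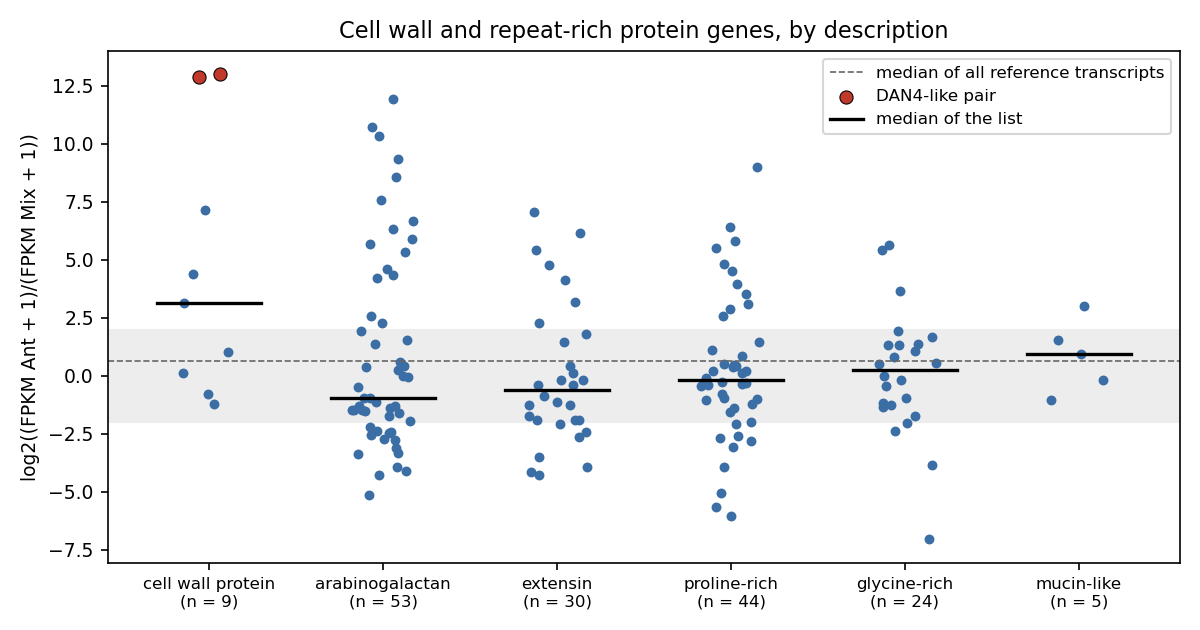
log2 ratio of 'Ant' to 'Mix' (FPKM + 1) of the transcripts of each list with an FPKM of at least 1 in either library; each point is a transcript, the bar is the median of the list, the dashed line is the median of all reference transcripts (0.62), and the grey band runs from -2 to 2. The pair (red) stands at 13.01 and 12.89, while most other lists spread to both sides of the band.

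The same libraries were searched for circular RNAs. The circRNA table held 168 circRNAs, listed from 1 back-spliced junction read upward, with 304 junction reads in 'Ant' and 184 in 'Mix', and none of them was hosted by BraA09g034610.3C or BraA09g003580.3C. At this depth a circRNA of the pair below that level was not detectable.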

How the data were processed

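FPKM and estimated counts of linear transcripts and junction read counts of circRNAs were used as the authors deposited them. The authors trimmed reads with Cutadapt, removed ribosomal RNA, mapped to the Brassica rapa v3.0 genome and assembled transcripts with StringTie. The submitters' processing notes name HISAT2, StringTie and TopHat, whereas the study's methods name TopHat2. The tool behind the deposited FPKM is uncertain: StringTie with Ballgown by the methods, Cuffdiff by the results section. In 'Ant' the deposited estimated counts came to 216371346 in all, and in 'Mix' to 190816341. They were proportional to FPKM times length (SD of the ratio 0.0190% in 'Ant' and 0.0202% in 'Mix') and mostly rounded up, in 96.7% of transcripts above 0 in 'Mix', so 1 estimated count was not 1 read. The deposited SRPBM signal of circRNAs was not used.

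Log2 ratios had a pseudocount of 1. The filter was an FPKM of at least 1 in either library, and the cutoffs were 2 for reference transcripts and 1, the study's cutoff for lncRNAs, for class x transcripts, without the p-values and coding-potential filters the study also used. Folds used the library totals implied by the table, with a floor of 6 estimated counts. No p-value was computed, since each group held 1 library. The code was tested on simulated data. Named were all transcripts of the pair and of the cell wall protein list, the 3 highest of each other list in 'Ant', the nearest transcript on each side, the 5 nearest in level and any hosted circRNA; the other 3 neighbours past the cutoff and the transcript above the pair in 'Ant' were named after their values were seen. The pair, the lists and the floor were chosen with earlier results of these data known. Other pseudocounts, filters, scalings, units and floors were tried. Python 3.11.15, pandas 2.3.3, numpy 2.4.6, scipy 1.17.1 and matplotlib 3.10.9 were used. Sequences of the pair were not analysed here.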

Additional observations from a re-analysis of the deposited data

How the results depend on the processing

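All 5 transcripts of the pair stayed higher in 'Ant' than in 'Mix' under every alternative run. With levels at or near 0 in 'Mix' this direction could not turn, so no weight rests on it. The order within the pair did change, both with the unit and with the pseudocount. With a pseudocount of 0.1 the log2 ratios of 'Ant' to 'Mix' were 16.05 for BraA09g034610.3C, 16.22 for BraA09g003580.3C, 7.62 for MSTRG.26016.1, 11.87 for MSTRG.24070.1 and 13.05 for MSTRG.24070.2, and with 0.01 they were 17.90, 19.54, 10.94, 15.19 and 16.37 in the same order. Since 4 of the 5 are listed at 0 in 'Mix', the pseudocount sets these values. Centring on the median transcript gave 12.47, 12.36, 3.83, 8.01 and 9.19, scaling to the same sum gave 13.15, 13.08, 4.54, 8.73 and 9.91, and estimated counts scaled to equal library sums gave 13.58, 13.71, 2.94, 7.86 and 9.01. Library totals without the window on chromosome A06 gave 4.39 for MSTRG.26016.1, and summing all class codes gave 13.11 for BraA09g003580.3C. Folds against a floor of 3 estimated counts were at least 958548 for BraA09g003580.3C, 477 for MSTRG.26016.1, 16561 for MSTRG.24070.1 and 36853 for MSTRG.24070.2. Without the window they were 167519 for BraA09g034610.3C, and at least 261586, 130, 4519 and 10057 for the other 4. The shares of 'Ant' were then 1.31% for BraA09g034610.3C and 1.36% for BraA09g003580.3C. By estimated counts BraA09g003580.3C ranked 1 among the reference transcripts in 'Ant', and the antisense to sense ratio was 0.000518 at BraA09g034610.3C and 0.0557 at BraA09g003580.3C.

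Of all reference calls, 69.1% were higher in 'Ant' as deposited, 50.9% after centring and 48.6% without the window. In the lists, a pseudocount of 0.1 gave 21 arabinogalactan proteins, 11 extensins, 15 proline-rich, 8 glycine-rich and 1 mucin-like transcript below -2, and 7 glycine-rich and 2 mucin-like above 2. The share of all reference transcripts at this pseudocount is not given here, so nothing is read from these counts about the lists. Centring gave 21 arabinogalactan proteins and 11 extensins below -2, against 14.7% of all reference transcripts. Without the window, 1 cell wall protein, 22 arabinogalactan proteins and 12 extensins lay below -2, against 17.2% of all reference transcripts. No paired analysis was possible because each group held 1 library, and no replicate could be left out. A sum over same-strand isoforms gave no value, since none was listed. A value of the pair with no interval was held to have moved where it differed by more than 0.5% of itself. Depth limits the pair only in 'Mix', where 0 to 9 estimated counts stand behind every fold.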

Other observations

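Among genes with a class x transcript, a sense FPKM of at least 1000 in 'Ant' was found at 8, a limit chosen after the values were seen. Their antisense to sense FPKM ratios ran between 0.00088 and 0.160, with a median of 0.00942. BraA09g003580.3C had the highest of the 8 ratios and BraA09g034610.3C the third lowest, so the genes of the pair lay near opposite ends although their sense levels were alike. Next to BraA09g003580.3C came BraA05g034430.3C, a copy of FLA14, with a ratio of 0.110, an antisense FPKM of 427 and a sense FPKM of 3876. Below BraA09g034610.3C were BraA07g032630.3C, a galactose oxidase-like protein, with a ratio of 0.00111, and BraA04g000830.3C, described as a pectinesterase, with a ratio of 0.00088. No test was made, as these are single values from 1 library.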
